A study of Mus musculus with 8 samples.

Results

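The genes described here are the 10 genes with which the liver disposes of ammonia, comprising the urea cycle enzymes Nags, Cps1, Otc, Ass1, Asl and Arg1 and the glutamine and ornithine genes Gls2, Glul, Oat and Rhbg. They were taken by symbol, through the Ensembl identifiers of the count table, and all 10 were found among its 46078 genes and among the 14654 genes that passed the filter on low counts. The table holds RNA-seq read counts from livers of mice that drank fructose water of 30% (w/v) for 22 weeks, 5 of them wild type (WT) and 3 with deletion of Rbfox2, a regulator of splicing (Rbfox2 KO). In the study's methods, Rbfox2 was floxed (Rbfox2 loxP/loxP) and deleted by a Cre recombinase driven by the albumin promoter, which acts in hepatocytes, so that other cells of the liver keep the gene. The wild-type mice of that cross are described as loxP/loxP animals without the Cre. Both groups received the fructose water, and their livers were taken after a fast. The comparison is therefore between genotypes under this diet in the fasted state. The labels give no age, and in the study's methods the diets began in young adult mice.

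Ammonia is cleared along the liver lobule by successive systems. Periportal hepatocytes release ammonia from glutamine with the liver-type glutaminase Gls2 and fix it in the urea cycle. In that cycle Nags makes the activator of Cps1, Cps1 forms carbamoyl phosphate and Otc joins it to ornithine. Ass1 then adds aspartate, Asl splits off its carbon skeleton and leaves its nitrogen behind, and Arg1 releases urea. Hepatocytes that line the central vein capture what is left over with glutamine synthetase (Glul), and also carry the ornithine aminotransferase Oat and the ammonium channel Rhbg. Glul, Oat and Rhbg are known targets of beta-catenin signalling in the pericentral zone. In whole-liver RNA, fewer cells of a type and less RNA per cell cannot be told apart, and counts per gene show no position in the lobule.

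The libraries held 24829693 to 37823155 counts. Rbfox2 itself had 14.0 to 23.2 CPM (counts relative to library size, scaled by TMM factors that equalise the bulk of genes between libraries) in WT and 6.84 to 12.4 in Rbfox2 KO, so that the groups did not overlap, and its log2 fold change was -1.03 ± 0.21 (SE; exact permutation p = 0.0179, edgeR adjusted p = 0.328). DESeq2 gave it an adjusted p of 0.0019. Hepatocyte markers summed to 73140 to 85890 CPM in the 8 libraries. Rbfox2 KO 1 stood apart from the other 7 libraries. Its TMM factor was 1.29 against 0.821 to 1.13, and the major urinary protein genes took 6.54% of its counts against 17.8% to 35.3%. The 13 pancreatic acinar markers summed to 473.8 CPM in it, against 4.78 to 17.3 in WT and 4.87 and 5.90 in the other Rbfox2 KO libraries. Its 5 erythroid markers summed to 2107 CPM against 740.9 to 1459 elsewhere. The part of these differences in the results below was not tested. Values without Rbfox2 KO 1 are given beside the results that it moved most.

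The promoters of the genes whose levels moved together or differed most are shown first. Of the 10 genes, 5 had an entry in the RefSeq promoter set for GRCm38.p6 (Glul, Oat, Ass1, Nags and Otc). The 250 bases before the annotated start are printed 5′ to 3′ on the strand of the gene for Glul and Oat, the pericentral genes whose levels ran in parallel, and for Ass1, the gene with the largest fold among the 10. Capitals mark matches on either strand to a CCAAT box (CCAAT) or a GC box (GGGCGG). Glul lies at chr1:153899679-153899928 (+), Oat at chr7:132576399-132576648 (-) and Ass1 at chr2:31470020-31470269 (+). The windows end at the RefSeq start, and for Ass1 the annotation used elsewhere here (GENCODE M21) starts the gene earlier, so that the last 63 bases of its window lie inside the gene in that annotation.
Glul: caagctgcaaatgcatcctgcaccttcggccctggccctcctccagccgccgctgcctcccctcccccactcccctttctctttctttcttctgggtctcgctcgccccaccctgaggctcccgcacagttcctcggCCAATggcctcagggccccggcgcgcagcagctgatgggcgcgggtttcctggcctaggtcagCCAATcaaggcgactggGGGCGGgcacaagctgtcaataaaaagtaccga
Oat: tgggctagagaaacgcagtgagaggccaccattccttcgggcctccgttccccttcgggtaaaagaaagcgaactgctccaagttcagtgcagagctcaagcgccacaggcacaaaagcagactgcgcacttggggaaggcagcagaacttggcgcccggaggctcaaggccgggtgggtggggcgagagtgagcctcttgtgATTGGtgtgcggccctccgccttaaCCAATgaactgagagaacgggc
Ass1: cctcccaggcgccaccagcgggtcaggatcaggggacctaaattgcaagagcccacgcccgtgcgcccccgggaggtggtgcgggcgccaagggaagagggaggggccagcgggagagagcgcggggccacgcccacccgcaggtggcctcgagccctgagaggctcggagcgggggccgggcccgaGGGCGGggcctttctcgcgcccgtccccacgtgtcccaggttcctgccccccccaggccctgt

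The Glul window held CCAAT at 113 and 50 bases before the start and a GC box at 33 bases. The Oat window held CCAAT at 22 bases, and the same motif on the opposite strand at 47 bases. The Ass1 window held a GC box at 63 bases before the RefSeq start and no CCAAT. Among 32851 mouse promoters of the same length, 33.8% held CCAAT and 32.7% held GGGCGG on either strand, so neither is rare. The windows of Glul, Oat and Ass1 had no match to TATAAA (12.4% of promoters), to CTTTGAT, a core of the site of the TCF partners of beta-catenin (3.21%), or to the cyclic AMP response element TGACGTCA (1.55%). No match says only that these letters are not in this window. The matched motifs did not overlap each other. GC content was 64.8% for Glul, 60% for Oat and 75.6% for Ass1, against 53.2% over all promoters.

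Levels were first compared between genes in WT, per kilobase of exon. Ass1, the argininosuccinate synthase, had the highest level at 509.1 CPM per kb, followed by Oat at 348.2, Arg1 at 284.5, Cps1 at 207.6 and Glul at 175.4 (means, n = 5). Otc followed with 56.5, Asl with 53.6, Gls2 with 48.8, Nags with 13.3 and Rhbg with 0.546 CPM per kb. Neighbours in that order were separate in the 5 WT mice, with no overlap of ranges, for Arg1 over Cps1, Glul over Otc, Gls2 over Nags and Nags over Rhbg. The ranges of the other neighbours overlapped, and Otc was above Asl in 3 of 5 mice. The length used was the union of exons, 4831 bases for Asl against 2413 in its longest transcript, but 5555 in both for Cps1. Another measure of length could order some neighbours otherwise. Thus 5 genes formed an upper tier, 3 of them urea cycle enzymes. Arg2, the second arginase, was low in WT at 0.243 ± 0.150 CPM (SD, n = 5). Together the 10 genes took 0.355% to 0.601% of all counts in WT and 0.553% to 0.796% in Rbfox2 KO. These shares are of unscaled totals, which include the major urinary protein genes. The lowest share was in WT 3, where those genes took 35.3%, and the highest in Rbfox2 KO 1, where they took 6.54%. The shares are therefore not a comparison of the groups.

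**Figure D1:**
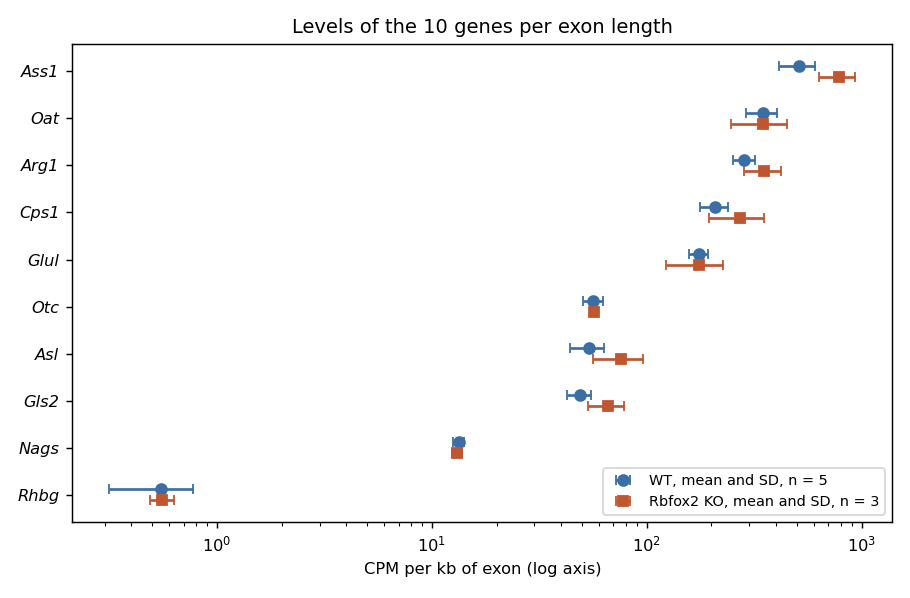
Level of each of the 10 genes as CPM per kb of exon, on a log axis, with the mean and SD of 5 WT and 3 Rbfox2 KO livers. Ass1 leads in WT with 509.1 CPM per kb and Rhbg is lowest with 0.546.

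Across the urea cycle, 5 of the 6 enzymes were higher in Rbfox2 KO and 1 lower, where 50.2% of all tested genes were higher. However, none of the 10 genes passed an edgeR adjusted p of 0.05, and 0 of 14654 tested genes did (0.0%). At an unadjusted edgeR p under 0.05 there were 3 of the 10, Ass1, Asl and Gls2, all higher in Rbfox2 KO, where 4.74% of all tested genes had such a p and 2.41% had it in that direction. The groups did not overlap for 1 of the 10, Ass1, as for 3.71% of all tested genes. The median log2 fold change was 0.17 over the 10 genes and 0.35 over the 6 enzymes, against 0.001 over all tested genes. Without Rbfox2 KO 1, 2 of the 10 had an unadjusted p under 0.05, Ass1 and Cps1, beside 3.83% of all genes tested in that fit. The count was 1 without Rbfox2 KO 3, where 872 of all genes had such a p, against 694 with all livers. It was 5 without Rbfox2 KO 2, beside 972 of all genes (6.46%), and 5 without WT 5, beside 684. DESeq2 called 0 of the 10 at an adjusted p of 0.05, beside 0.403% of all genes. Scaling by library totals alone shifted the median of all genes by 0.12 and placed all 10 genes above 0.

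Ass1, which lies on chromosome 2 from 31470207 to 31520672 (GRCm38, plus strand), differed most. The 5 WT livers had 1495, 1410, 927.2, 1073 and 1240 CPM, and the Rbfox2 KO livers had 2263, 1535 and 1869 CPM. Every Rbfox2 KO liver was above every WT liver, although Rbfox2 KO 2 exceeded WT 1 by little. Means were 1229 ± 233.8 (SD, n = 5) and 1889 ± 364.1 (SD, n = 3), a ratio of 1.54. This is a log2 fold change of 0.62 ± 0.19 (SE), for which edgeR gave an adjusted p of 0.824. The exact permutation p for the CPM means was 0.0179, the smallest that the 56 splits of 8 samples allow, in 1 of 10 such tests with no adjustment among them. The log2 fold change was 0.46 without Rbfox2 KO 1. On leaving out either WT 2 or Rbfox2 KO 1, none of the 10 genes had an exact permutation p under 0.05.

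The count of Ass1 carries an uncertainty from a copy. Of its longest transcript, 55.3% also occurs, in stretches of 50 bases, in the processed pseudogene Gm5424, and the sources do not state what was done with multiply aligned reads. Gm5424 held 1774 to 2495 counts in WT and 2600 to 4829 in Rbfox2 KO, or 5.25% to 6.72% of the Ass1 count. Its log2 fold change, 0.65 ± 0.17 (SE, edgeR adjusted p = 0.594), was close in size to that of Ass1.

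Asl, the argininosuccinate lyase that acts next, had 334.7, 264.0, 223.4, 214.0 and 258.3 CPM in WT livers, and Rbfox2 KO 1 to 3 had 393.6, 261.2 and 449.3 CPM. Rbfox2 KO 1 and 3 were above all WT livers and Rbfox2 KO 2 lay among them. The log2 fold change was 0.51 ± 0.19 (SE, edgeR adjusted p = 0.952), with an exact permutation p of 0.0536. It was 0.45 without Rbfox2 KO 1.

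Cps1, which performs the entry step and is among the most abundant mitochondrial enzymes of the liver, had 1144, 1296, 929.8, 1058 and 1338 CPM in WT. The Rbfox2 KO livers had 1312, 1222 and 2009 CPM. Rbfox2 KO 3 alone lay above the WT range. The log2 fold change was 0.39 ± 0.19 (SE, edgeR adjusted p = 1.0), and it was 0.13 without Rbfox2 KO 3 and 0.48 without Rbfox2 KO 1. Arg1, the last step, had 588.5, 662.9, 567.9, 597.9 and 752.2 CPM in WT livers, and Rbfox2 KO 1 to 3 had 747.8, 654.7 and 954.7 CPM. Rbfox2 KO 3 was again the only liver above the WT range, and the log2 fold change was 0.31 ± 0.15 (SE, edgeR adjusted p = 1.0), or 0.14 without that liver. The exact permutation p was 0.107 for both Cps1 and Arg1.

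Nags and Otc differed least among the 6 enzymes. Nags had 34.8 to 40.2 CPM in WT and 35.3 to 39.2 CPM in Rbfox2 KO, and the 95% interval of its log2 fold change (-0.02) ran from -0.21 to 0.17. Otc, an X-linked gene, had 203.7 to 258.7 CPM in WT and 235.3 to 245.9 CPM in Rbfox2 KO, and its log2 fold change was 0.01 (interval -0.23 to 0.26). Their Rbfox2 KO values all lay inside the WT range. Nags was also the steadiest of the 10 genes across WT livers, with a coefficient of variation of 5.69%, while Ass1 and Asl varied by 19.0% and 18.4%. Of the longest Nags transcript, 14.9% is shared with the antisense gene Gm11586, whose counts were 2.02% to 3.66% of those of Nags.

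**Figure D2:**
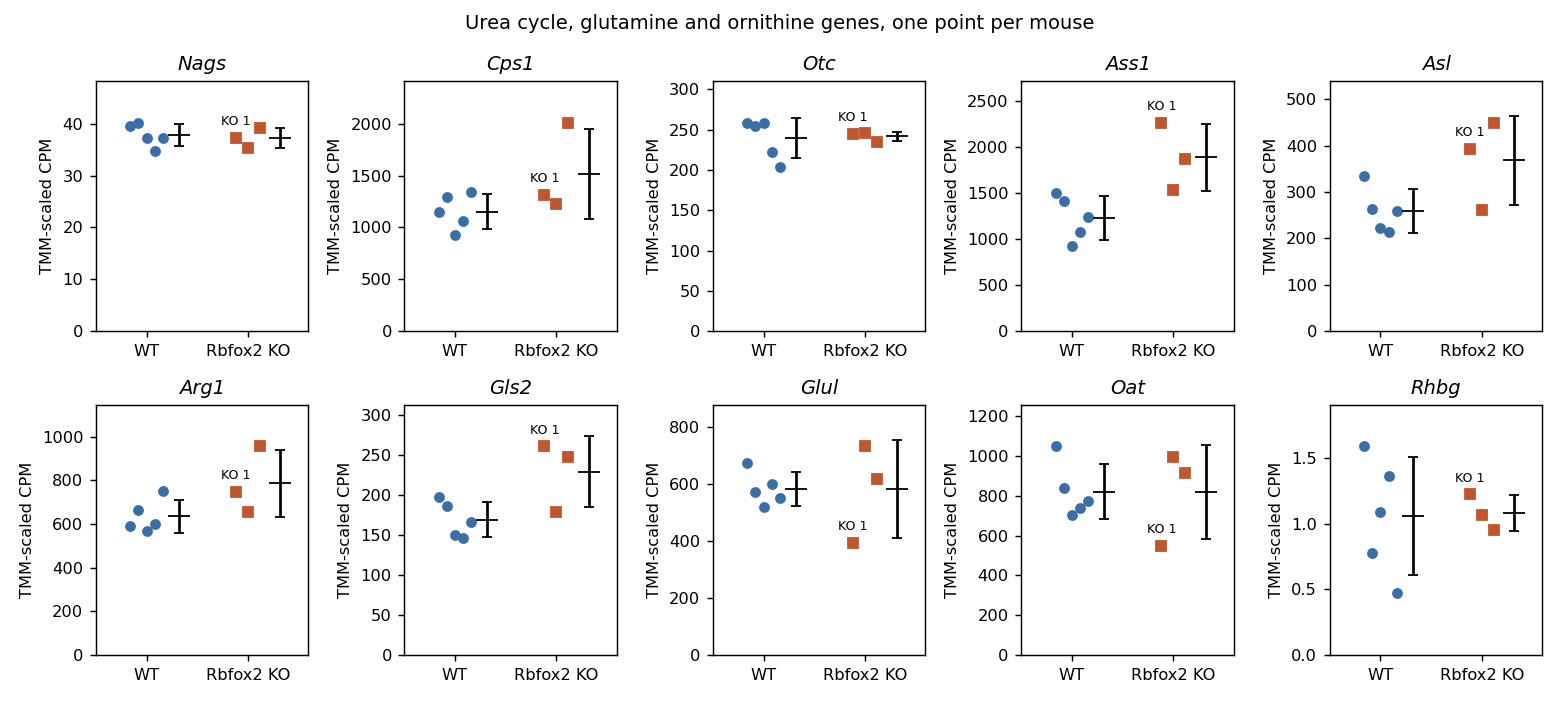
TMM-scaled CPM of each of the 10 genes in single livers, with circles for 5 WT and squares for 3 Rbfox2 KO and bars for the mean and SD of each group. Ass1 is the only gene whose groups do not overlap, and Rbfox2 KO 1 is the lowest of the 8 livers for Glul (393.9 CPM) and Oat (549.7 CPM) and the highest for Ass1 (2263 CPM) and Gls2 (260.9 CPM).

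Gls2, the periportal glutaminase, was the third gene with an unadjusted edgeR p under 0.05. It had 197.8, 186.1, 149.9, 146.6 and 166.7 CPM in WT livers, and Rbfox2 KO 1 to 3 had 260.9, 178.9 and 248.0 CPM. As for Asl, Rbfox2 KO 2 lay within the WT range and the other Rbfox2 KO livers above it. The log2 fold change was 0.44 ± 0.15 (SE, edgeR adjusted p = 0.882), with an exact permutation p of 0.0714, and without Rbfox2 KO 1 it was 0.33.

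The pericentral genes had almost the same mean in both groups, from livers that lay on both sides of it. Glul, on chromosome 1 from 153899944 to 153909723, had 674.5, 570.4, 519.6, 598.5 and 550.9 CPM in WT livers, and Rbfox2 KO 1 to 3 had 393.9, 732.1 and 618.0 CPM. Rbfox2 KO 1 lay below all WT livers and Rbfox2 KO 2 above them. The means were 582.8 ± 58.8 (SD, n = 5) and 581.3 ± 172.0 (SD, n = 3), and the log2 fold change was -0.0036, with a 95% interval from -0.41 to 0.40. Differences of up to 0.40 on the log2 scale in either direction thus lie within the error. Of the longest Glul transcript, 15.0% is shared with other genes, among them the pseudogene Glns-ps1, whose counts were 0.308% to 1.08% of those of Glul. The value was 0.21 without Rbfox2 KO 1.

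Oat had 1049, 840.6, 706.0, 740.2 and 773.7 CPM in WT livers, and Rbfox2 KO 1 to 3 had 549.7, 995.4 and 916.1 CPM. Rbfox2 KO 1 was again below all WT livers, while the others lay within the WT range. The log2 fold change was -0.0026, with an interval from -0.45 to 0.45, and 0.21 without Rbfox2 KO 1. The coefficients of variation among Rbfox2 KO livers were 29.6% for Glul and 29.0% for Oat, against 10.1% and 16.6% among WT livers.

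Rhbg had few reads, although above the floor of 3 counts, which equals 0.0793 to 0.121 CPM on library totals without TMM scaling. It had 43, 24, 31, 39 and 16 counts in WT and 39, 27 and 34 counts in Rbfox2 KO, or 0.47 to 1.59 and 0.95 to 1.22 CPM. The Rbfox2 KO values lay inside the WT range, and the 95% interval of the log2 fold change ran from -0.76 to 0.83. Of 1937 exon bases of Rhbg, 1190 are also exon bases of Gm38392 on the same strand, a gene with 0 counts in all 8 libraries. How reads in that stretch were assigned is not given in the sources used here, so the level of Rhbg is uncertain.

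**Figure D3:**
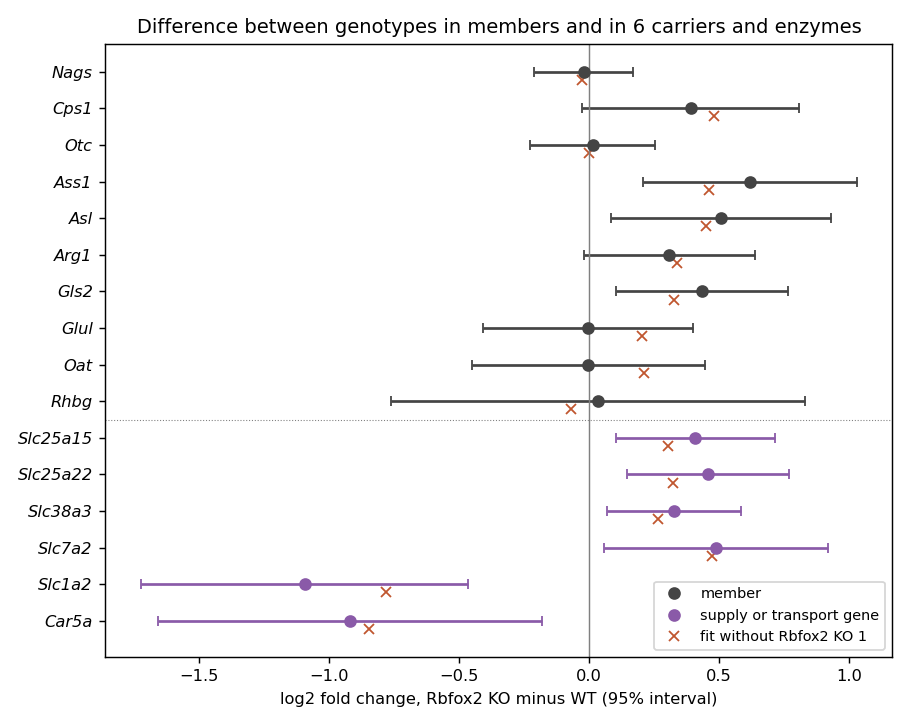
Log2 fold change, Rbfox2 KO minus WT, with the 95% interval of the edgeR fit for the 10 genes (black) and 6 supply and transport genes (purple), and the value of the fit without Rbfox2 KO 1 as a cross. The intervals of Ass1, Asl and Gls2 lie above 0, and those of Glul and Oat are centred on 0 with their crosses at 0.21.

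The ratio of the opposed enzymes Gls2 and Glul does not depend on library scaling. Per kb, it was 0.281, 0.312, 0.276, 0.234 and 0.289 in WT and 0.633, 0.234 and 0.384 in Rbfox2 KO. Rbfox2 KO 1 and 3 were above every WT liver, and Rbfox2 KO 2 was level with the lowest of them. Oat over Glul stayed between 1.74 and 2.19 in WT and between 1.91 and 2.09 in Rbfox2 KO. A balance was taken as the mean log2 CPM of the 7 periportal genes minus that of the 3 pericentral genes, as a description with no test. The WT livers averaged 2.05 ± 0.32 (SD, n = 5) and the Rbfox2 KO livers 2.34 ± 0.42 (SD, n = 3). Rbfox2 KO 1 had 2.69, above the WT range of 1.76 to 2.48, and the others had 1.88 and 2.46. Leaving out Rhbg because of its few counts, the balance was -0.17, -1.34 and -0.74 in Rbfox2 KO 1 to 3 and -1.11 ± 0.12 (SD, n = 5) in WT.

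Relations between genes were then examined over the 8 livers, in log2 CPM, for 6 pairs. Of these, Glul and Gls2 are opposed enzymes, and the other pairs share a zone or a pathway. These libraries differ in genotype and in scaling, and neither group alone holds enough livers for a correlation. Glul and Oat ran in parallel, with a Pearson r of 0.94 (exact permutation p = 0.000843, adjusted over the 6 pairs 0.00506) and a Spearman rho of 0.90 (exact permutation p = 0.00456, adjusted 0.0217). Leaving out Rbfox2 KO 1 and 2, the livers farthest from the median of Glul, r was 0.87, and without Rbfox2 KO 1 alone it was also 0.87. Ass1 and Asl had an r of 0.88 (exact permutation p = 0.00352, adjusted 0.0106) and a rho of 0.88 (exact permutation p = 0.00724, adjusted 0.0217). Leaving out WT 3 and Rbfox2 KO 1, r was 0.89.

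Rhbg followed neither of its pericentral neighbours. Its r was 0.09 with Glul (rho 0.14) and 0.06 with Oat (rho -0.02), with exact permutation p of 0.811 and 0.883. The opposed pair Glul and Gls2 had an r of -0.32 (exact permutation p = 0.448, rho 0.00), which became 0.57 without Rbfox2 KO 1 and 2 and 0.40 without Rbfox2 KO 1. Cps1 and Otc, consecutive mitochondrial enzymes, had an r of -0.26 (exact permutation p = 0.509) and a rho of -0.57 (exact permutation p = 0.151). Adjusted p over the 6 pairs was 0.764 to 0.883 for these 4 values of r. Leaving out the 2 farthest livers, r was 0.57 for Glul and Rhbg, -0.0037 for Oat and Rhbg and -0.09 for Cps1 and Otc. The negative values depended on the scaling. With library totals in place of TMM, r was 0.47 for Cps1 and Otc (rho 0.43) and 0.13 for Glul and Gls2. Under that scaling r was 0.93 for Glul and Oat and 0.94 for Ass1 and Asl. Library totals leave in a factor shared by all genes of a liver (TMM factors 0.821 to 1.29), which can raise r. The values under that scaling are therefore no separate support for any pair.

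Over all 45 pairs of the 10 genes, a set taken after the values were seen, 5 passed an adjusted p of 0.05 for r and 2 of these also for rho (Cps1 with Arg1 and Asl with Gls2, adjusted exact permutation p = 0.00893 each). Beside Glul with Oat and Ass1 with Asl, they were Cps1 with Arg1 (r = 0.96, rho = 0.98, exact permutation p = 0.000124, adjusted 0.00483), Ass1 with Gls2 (r = 0.96, rho = 0.90, exact permutation p = 0.000298, adjusted 0.00483) and Asl with Gls2 (r = 0.96, rho = 0.98, exact permutation p = 0.000322, adjusted 0.00483). For rho, the adjusted exact permutation p was 0.0513 for Glul with Oat and for Ass1 with Gls2, and 0.0652 for Ass1 with Asl. Leaving out the 2 farthest livers of each of the 3 further pairs, r was 0.89, 0.95 and 0.93. Nags, Otc and Rhbg were in none of the 5 pairs.

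**Figure D4:**
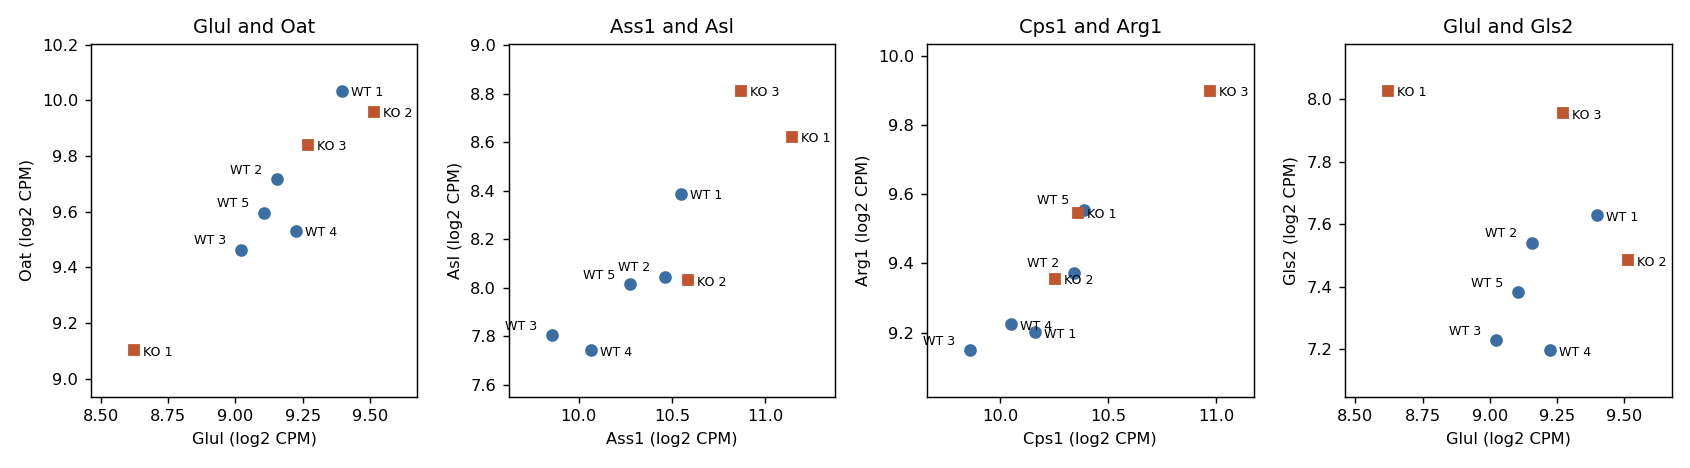
Log2 CPM of 4 pairs of genes in the 8 livers, with circles for WT and squares for Rbfox2 KO. Glul and Oat (r = 0.94), Ass1 and Asl (r = 0.88) and Cps1 and Arg1 (r = 0.96) lie along a line, whereas Glul and Gls2 (r = -0.32) do not, with Rbfox2 KO 1 low in Glul and high in Gls2.

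The 5 genes whose log2 CPM was most like that of Glul over the 8 livers were Stk36 (r = 0.98), Igf2bp2 (r = 0.96), Acbd4 (r = 0.95), Ntng2 (r = 0.95) and Oat (r = 0.94). Among the pericentral markers r with Glul was 0.81 for Cyp2e1, 0.74 for Cyp1a2 and 0.67 for Lgr5. It was 0.55 for Tbx3, 0.46 for Slc1a2 and -0.21 for Axin2, so the markers did not all follow Glul. Without Rbfox2 KO 1, which holds the lowest level of Glul, r was 0.11 for Cyp2e1, 0.09 for Cyp1a2 and 0.25 for Lgr5, and 0.94, 0.93, 0.87, 0.85 and 0.87 for Stk36, Igf2bp2, Acbd4, Ntng2 and Oat. These are descriptions over 8 and 7 points. The 5 genes were picked from the 14654 tested genes by their r over these same livers. Their high r on 7 of those livers partly follows from that choice and does not set them apart from the markers. Of the leading genes, Stk36 had 0.125 to 0.550 CPM and Ntng2 had 0.565 to 1.26 CPM, both at low counts. Acbd4 had 28.9 CPM in Rbfox2 KO 1 and 39.6 to 46.9 CPM in the other 7.

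A list of 16 genes, mostly for the supply and transport of nitrogen, ornithine and amino acids, gave 15 tested genes. It also holds Arg2, Sirt3 and Sirt5. Of the 15, 4 were higher and 2 lower in Rbfox2 KO at an unadjusted edgeR p under 0.05. Of all tested genes, 4.74% had such a p. By edgeR none of the list passed an adjusted p. The median log2 fold change of the list was 0.09. Slc25a15, the mitochondrial ornithine carrier, had 215.4 ± 31.1 CPM in the WT group (SD, n = 5) and 286.0 ± 37.8 in the Rbfox2 KO group (SD, n = 3), a log2 fold change of 0.41 (edgeR adjusted p = 0.882). Slc25a22, a mitochondrial glutamate carrier, had 135.2 ± 19.4 and 185.8 ± 29.0 CPM (log2 fold change 0.46, edgeR adjusted p = 0.864). Slc38a3, a glutamine transporter of hepatocytes, had 484.6 ± 51.7 and 608.1 ± 41.8 CPM (log2 fold change 0.33, edgeR adjusted p = 0.894). The groups did not overlap for 4 of the 15, Slc25a22, Slc38a3, Car5a and Slc1a2, beside 3.71% of all tested genes.

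A further 2 genes of that list, Slc7a2 and Car5a, had an unadjusted p under 0.05 and are named after their values were seen. Slc7a2, a carrier of arginine and ornithine, had a log2 fold change of 0.49 (edgeR adjusted p = 0.972). Car5a, the mitochondrial carbonic anhydrase that supplies bicarbonate to Cps1, had 33.3 to 94.5 CPM in WT livers, and Rbfox2 KO 1 to 3 had 24.9, 31.3 and 27.9 CPM, with a log2 fold change of -0.92 (edgeR adjusted p = 0.924, exact permutation p = 0.107). WT 1, with 94.5 CPM, stood well above the other WT livers, and without it the log2 fold change was -0.61. Rhcg, a sister channel of Rhbg, had 0 counts in all libraries. Slc1a2, described next, was the only one of the 15 with an unadjusted edgeR p under 0.05 without Rbfox2 KO 1.

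Slc1a2, the glutamate transporter of the cells that express Glul, had the largest fold among the related genes named here. It had 75.8, 87.9, 87.1, 86.2 and 109.9 CPM in WT livers, and Rbfox2 KO 1 to 3 had 21.2, 47.5 and 56.9 CPM. All Rbfox2 KO livers were below all WT livers, with means of 41.9 ± 18.5 (SD, n = 3) and 89.4 ± 12.5 (SD, n = 5). The log2 fold change was -1.09 ± 0.28 (SE, edgeR adjusted p = 0.636, exact permutation p = 0.0179), and DESeq2 called it with an adjusted p of 0.0117. The value was -0.78 without Rbfox2 KO 1. The fitted Slc1a2 level was thus 0.469 of WT in livers whose mean Glul level was almost that of WT.

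The zone markers were then read as lists, again with no gene past an edgeR adjusted p. The lists share genes and are not separate readouts. Slc1a2 is also in the supply list above, and Tbx3, Axin2 and Lgr5 are among both the pericentral and the Wnt genes. Of 22 pericentral markers, 20 were lower in Rbfox2 KO, as were 49.8% of all tested genes, and the median was -0.19. An unadjusted p under 0.05 was found for 2 of the 22 (Slc1a2 and Tbx3), beside 4.74% of all tested genes. Scaling by library totals, under which 26.2% of all tested genes were lower, left 17 of 22 lower. Without Rbfox2 KO 1, 15 of 22 were lower, beside 52.9% of all tested genes, and the median was -0.08. The list summed to 3471 CPM in Rbfox2 KO 1, against 7495 and 7832 in the other Rbfox2 KO livers and 6887 to 8093 in WT. Cyp2e1, the ethanol-oxidising cytochrome, had 2324 CPM in Rbfox2 KO 1 and 5164 to 6231 CPM in the other 7 livers. Cyp1a2 had 45.1 CPM in Rbfox2 KO 1 and 83.1 to 125.5 CPM elsewhere. Thus Cyp2e1, Cyp1a2, Glul and Oat all had their lowest level in Rbfox2 KO 1. Axin2 and Rhbg did not. Axin2 had 3.51 CPM in Rbfox2 KO 1 and 2.99 to 5.77 CPM elsewhere, and Rhbg had 1.22 CPM against 0.473 to 1.59 CPM.

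Tbx3, a transcription factor among the beta-catenin targets, had 18.7 to 23.8 CPM in WT livers, and Rbfox2 KO 1 to 3 had 10.8, 19.2 and 18.1 CPM (log2 fold change -0.47, edgeR adjusted p = 0.943), and the log2 fold change was -0.26 without Rbfox2 KO 1. The beta-catenin targets Axin2 and Lgr5 had log2 fold changes of -0.29 (edgeR adjusted p = 1.0) and -0.32 (edgeR adjusted p = 1.0), and -0.37 and -0.16 without Rbfox2 KO 1. Ctnnb1, which encodes beta-catenin, had 108.5 to 122.3 CPM in WT and 123.0 to 146.4 CPM in Rbfox2 KO (log2 fold change 0.21, edgeR adjusted p = 1.0). Ctnnb1 and Tbx3 were the 2 of 16 Wnt and beta-catenin signalling genes with an unadjusted p under 0.05, beside 4.74% of all tested genes. Without Rbfox2 KO 1 there was none. The median of that list was -0.09, with 4 genes higher and 12 lower, where 49.8% of all tested genes were lower. It was 0.03 without Rbfox2 KO 1, with 9 higher and 7 lower. Scaling by library totals, which placed 73.8% of all tested genes above 0, gave 8 and 8, and the list median was then 0.12 below that of all genes, against 0.09 below it with TMM.

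**Figure D5:**
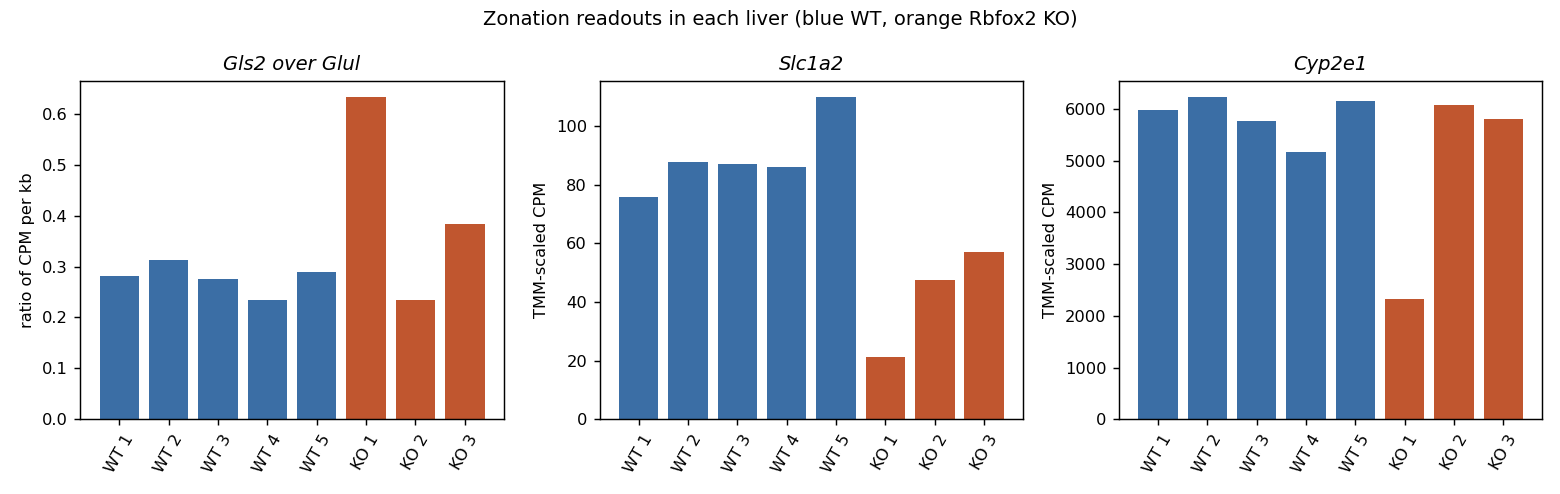
Gls2 over Glul per kb of exon, and TMM-scaled CPM of Slc1a2 and Cyp2e1, in each of the 8 livers (blue WT, orange Rbfox2 KO). Slc1a2 is lower in all 3 Rbfox2 KO livers, whereas Cyp2e1 is low in Rbfox2 KO 1 alone (2324 CPM), the liver with the highest Gls2 over Glul (0.633).

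Of 13 periportal markers, 10 were higher and 3 lower in Rbfox2 KO, where 50.2% of all tested genes were higher. Their median log2 fold change was 0.20 (0.13 without Rbfox2 KO 1). At an unadjusted p under 0.05, 1 was higher and 1 lower, beside 4.74% of all tested genes at such a p. Cdh1, the epithelial cadherin of periportal hepatocytes, had 3.16 to 9.16 CPM in WT livers, and Rbfox2 KO 1 to 3 had 17.8, 10.3 and 9.37 CPM (log2 fold change 0.87, edgeR adjusted p = 0.954). It was 0.52 without Rbfox2 KO 1 and then no longer had an unadjusted edgeR p under 0.05, while 1 other periportal marker, Ctsc, named after its values were seen, did. Sult5a1 had a log2 fold change of -0.80 (edgeR adjusted p = 1.0). For Hal, the histidine ammonia-lyase, the log2 fold change was 0.49 (edgeR adjusted p = 1.0), and for the serine dehydratase Sds it was 0.59 (edgeR adjusted p = 1.0). Cyp2f2 and the gluconeogenic enzyme Pck1 had -0.09 and 0.20. Sds was 0.17 without Rbfox2 KO 1, in which it had 301.7 CPM.

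Amino acid breakdown releases the nitrogen that the cycle takes up, and 38 of its 39 listed genes were tested. At an unadjusted edgeR p under 0.05, 5 of the 38 were higher in Rbfox2 KO and none lower, beside 2.41% of all tested genes that were higher at such a p, and the list median was 0.07. Sdsl, a serine dehydratase-like enzyme, had 8.63 to 10.4 CPM in WT livers, and Rbfox2 KO 1 to 3 had 17.7, 11.1 and 14.9 CPM. Its log2 fold change was 0.64 ± 0.14 (SE, edgeR adjusted p = 0.379, exact permutation p = 0.0179), and DESeq2 called it with an adjusted p of 0.0387. Aass, which starts lysine breakdown, had 157.9 to 199.8 CPM in WT and 217.5 to 252.7 CPM in Rbfox2 KO (log2 fold change 0.35, edgeR adjusted p = 0.864). Cbs, the first enzyme of transsulfuration, had 298.5 to 366.2 and 388.2 to 409.6 CPM (log2 fold change 0.32, edgeR adjusted p = 0.882). The groups did not overlap for Sdsl, Aass and Cbs, as for 3.71% of all tested genes, and these 3 kept an unadjusted p under 0.05 without Rbfox2 KO 1. Agxt, the alanine-glyoxylate aminotransferase, had a log2 fold change of 0.72 (edgeR adjusted p = 0.932) and 0.48 without Rbfox2 KO 1. The fifth gene was Cth, the next step after Cbs, with 0.58 (edgeR adjusted p = 0.954), named after its values were seen.

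Because the urea cycle responds to fasting and glucagon, 16 fasting-responsive genes were read beside it. Of them 13 were higher in Rbfox2 KO, as were 50.2% of all tested genes, and the median log2 fold change was 0.23. The only one with an unadjusted p under 0.05 was Fgf21, a hepatokine of fasting, with 6.75 to 15.8 CPM in WT livers, and Rbfox2 KO 1 to 3 had 24.3, 17.6 and 14.0 CPM (log2 fold change 0.73, edgeR adjusted p = 0.894). Without Rbfox2 KO 1 its log2 fold change was 0.49 and it was no longer among them, while 4 other genes of the list had such a p (Angptl4, Cyp4a10, Cyp4a14 and Acot1, named after their values were seen). Of all tested genes, 4.74% had such a p with all livers, and 3.83% in the fit without Rbfox2 KO 1. The list summed to 9265 CPM in Rbfox2 KO 1, to 15380 and 16880 in the other Rbfox2 KO livers and to 11520 to 13250 in WT. Its part in the level of the urea cycle genes was not tested. Of 16 transcription factors and hormone receptors, none had an unadjusted edgeR p under 0.05 and the median was 0.07. Over all 111 pathway genes beyond the 10, 109 were tested and 15 had an unadjusted edgeR p under 0.05 (13.8%), 11 higher and 4 lower, against 4.74% of all genes. Without Rbfox2 KO 1 there were 6 (5.5%) against 3.83% of all genes in that fit, and without Rbfox2 KO 2 there were 25 (22.9%) against 6.46%. The lists were chosen with earlier results of these data known. A raised share is therefore a description and cannot show a response of these pathways.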

How the data were processed

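Liver poly(A) RNA-seq of 5 WT and 3 Rbfox2 KO mice was compared. The deposited table gives raw read counts for Ensembl genes. The authors aligned paired-end reads to GRCm38 with TopHat2 2.0.11 as first-strand libraries (after CASAVA, for whose version the labels and the methods differ) and counted them with featureCounts. The strand setting of the counting and the treatment of multiply aligned reads are not given in the sources used here, so overlapping and near-identical genes are uncertain.

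Of 46078 genes, 45229 had a symbol in GENCODE M21 or RefSeq. Totals ran from 24829693 to 37823155 counts, with a floor of 3 counts, which covers counting error only. Genes were filtered with filterByExpr, scaled by TMM and compared by the quasi-likelihood test of edgeR 4.0.16 (robust, R 4.3.3), genotype being the only term, with Benjamini-Hochberg adjustment at 0.05 over 14654 genes. CPM means were compared by two-sided exact permutation tests over 56 splits, and correlations by two-sided exact permutation over 40320 pairings, on log2 CPM (prior count 2). CPM per kb used the union of exons. The model fits were run on simulated counts with known changes.

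Genes named were the 10 genes, Rbfox2, the 4 smallest unadjusted p under 0.05 of each pathway or fasting list, fixed zone markers and a paralogue, and the 5 genes most like Glul. The values of 1 gene named by this rule are not reported here. The genes and lists were chosen with earlier results of these data known. Alternatives were other scalings and filters, DESeq2 1.42.0, limma-voom (limma 3.58.1), the sample number as a block, and leaving out each sample. The replicates are separate mice per the study, and within groups no 2 libraries agreed within sampling noise (chi-square per degree of freedom 45.5 to 346).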

Additional observations from a re-analysis of the deposited data

Results flagged for a closer look

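In 5 of 48 sets of values tested in the WT group, 1 of the 5 livers lay far from the rest, by the share of the group's range taken by its gap to the nearest other liver (limit 0.71). Chance alone gives about 2.4 of 48. None concerned the 10 genes. Aass had 157.9 CPM in WT 3 and 188.6 to 199.8 CPM in the other WT livers (share 0.732). Sult5a1 had 9.82 CPM in WT 1 and 3.11 to 4.44 CPM in the others (share 0.801). Cyp2f2, a periportal cytochrome, had 371.7 CPM in WT 5 and 515.0 to 558.1 CPM in the others (share 0.768). Igf2bp2 had 3.10 CPM in WT 1 and 1.69 to 1.96 CPM in the others (share 0.809). Slc7a2 had 383.6 CPM in WT 5 and 232.9 to 276.5 CPM in the others (share 0.711).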

How the results depend on the processing

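Cps1, Ass1, Asl, Arg1 and Gls2 kept their direction under all 17 alternatives. None of the 10 genes passed an adjusted p under any of them. Over all genes the count past the adjusted threshold was 0, 6 with no filter and 59 with DESeq2, with 694, 1036 and 722 genes at an unadjusted p under 0.05. The 3 genes with an unadjusted p under 0.05 became 5 with no filter, 5 with DESeq2, and 1 to 5 on leaving out a sample (1 without Rbfox2 KO 3, 5 without Rbfox2 KO 2 or WT 5). Over all genes, such a p was found for 872 without Rbfox2 KO 3, 972 without Rbfox2 KO 2 and 684 without WT 5. The 15 pathway genes became 6 to 25 (6 without Rbfox2 KO 1, 25 without Rbfox2 KO 2), and the 1 gene with an exact permutation p under 0.05 in CPM became 0 to 3 (0 without WT 2, with 35 splits, or Rbfox2 KO 1, with 21, and 3 without Rbfox2 KO 2). The exact permutation test was not run over all genes, so no share of them can be given beside it. The balance difference of 0.29 ran from 0.12 to 0.53, and was 0.36 without Rhbg, an alternative added after seeing the data. The cause was not tested.

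Values near 0 changed sign. With library totals, Nags was 0.094, Glul 0.0574, Oat 0.0547, Cyp2f2 0.0396 and Ntng2 0.014. With no filter, Glul was 0.0087 and Oat 0.01. With limma-voom, Arg2 was 0.0392, Stk36 -0.15 and Igf2bp2 -0.056. On leaving out a sample the ranges were -0.0586 to 0.017 for Nags, -0.0387 to 0.0427 for Otc, -0.20 to 0.21 for Glul, -0.17 to 0.21 for Oat, -0.15 to 0.22 for Rhbg, -0.53 to 0.0163 for Cyp2e1, -0.28 to 0.29 for Cyp1a2, -0.34 to 0.0406 for Arg2, -0.26 to 0.48 for Stk36, -0.23 to 0.33 for Igf2bp2, -0.28 to 0.0558 for Acbd4 and -0.26 to 0.23 for Ntng2.

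The sample numbers shared by both groups were not treated as pairs of mice. The r of deviations from group means was 0.0484 to 0.170 for the 3 equal numbers and -0.41 to 0.37 for unequal ones. So few pairs cannot exclude a pairing. With the number as a replicate block, 1 of the 10 genes and 16 pathway genes had an unadjusted p under 0.05, as did 739 of all 14654 tested genes. Signs changed for Otc (-0.089), Rhbg (-0.0567), Arg2 (0.69), Stk36 (-0.0373) and Igf2bp2 (-0.11). That fit has a term for each number and leaves little from which to estimate the spread. With 3 Rbfox2 KO livers, 1 of them apart in composition, the intervals of Glul and Oat reach at least 0.40 on the log2 scale on either side of 0, and smaller changes could not be resolved.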

Other observations

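The summed level of the 6 urea cycle enzymes, a value outside the comparisons above and with no test, was 2944 to 3928 CPM in WT livers, and Rbfox2 KO 1 to 3 had 4998, 3954 and 5556 CPM. The 12 skeletal muscle markers summed to 9.56 to 423.6 CPM in WT, to 246 CPM in Rbfox2 KO 1 and to 1.30 and 8.56 CPM in the other Rbfox2 KO livers. Kupffer cell markers (6 genes) summed to 176.8 to 202.5 CPM in WT and 189.5 to 252.8 CPM in Rbfox2 KO. Cholangiocyte markers (5 genes) summed to 20.5 to 32.2 and 24.9 to 31.9 CPM, sinusoidal endothelial markers (6 genes) to 138.4 to 158.4 and 136.3 to 155.8 CPM, and stellate cell markers (7 genes) to 155.3 to 208.0 and 144.8 to 264.7 CPM. Of 5 kidney markers, Umod, Kap and Aqp2 had 0 counts in all libraries, and the list summed to at most 0.629 CPM. Of 5 small intestine markers, Sis and Alpi had 0 counts in all libraries, and the list summed to 88.7 to 170.4 CPM.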
